A study of Mus musculus with 12 samples.

Results

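The subject is a set of 39 cell cycle genes measured in healing back-skin wounds of diabetic mice. The set is a fixed list of known replication and mitosis genes, chosen by function and not by a cut on measured values. Earlier results of these data were known when it was chosen. The set holds 39 of the 24062 genes counted. It falls into 15 S-phase genes and 24 mitotic genes. Most S-phase genes act when DNA is copied, and most mitotic genes before or while the copied chromosomes are separated. The classes are not pure, since Mki67, Ccna2, E2f1, Foxm1, Ccne1 and Ccne2 are regulators or act in more than 1 phase. All 39 were counted, and all 39 were among the 16267 genes that passed the filter on low counts. Wounds came from C57BL/6 mice made diabetic with streptozotocin, a toxin of insulin-producing cells, and every group carries that diabetes. The 12 mice gave 1 RNA-seq library each and carry 1 of 4 treatment labels, with 3 mice each: blank, DSCG, post-MCS-01 and pre-MCS-01. The labels give no age, dose, route or time of sampling, and they do not say what pre and post refer to. MCS-01 is a code name, DSCG commonly stands for disodium cromoglycate, a mast cell stabiliser, and blank was taken as the control. Libraries are numbered 1 to 3 within a group in the order of the records.

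Cells that divide pass through a fixed order of phases. E2F transcription factors and cyclin E start S phase, the MCM helicase unwinds the DNA, and nucleotide enzymes supply its building blocks. Later, cyclin B with the kinase Cdk1 drives entry into mitosis, Aurora and Polo kinases build the spindle, and the ubiquitin ligase APC/C with its activator Cdc20 ends it. Transcripts of these genes are high in cycling cells and low in resting ones, and in a wound dividing keratinocytes, fibroblasts, endothelium and hair follicle cells can all supply them. In whole tissue, fewer dividing cells and less of each transcript per dividing cell cannot be told apart.

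The library blank 3 was shallow, with 3835042 gene counts against 37702643 to 50461867 in the other 11, so that 3 counts, the limit that a count of 0 allows, correspond to 0.786 CPM there (read counts scaled to library size) and to at most 0.0852 CPM elsewhere. The lowest count of any member in any library was 5, in blank 3. In 3 libraries, pre-MCS-01 2, DSCG 2 and blank 3, long transcripts were low relative to short ones over all genes. Spearman's rho between exon length and deviation from the mean was -0.385, -0.330 and -0.320 there and -0.0559 to 0.337 in the other 9, a description across genes. Over the 39 members the same rho was -0.121, -0.147 and -0.00567 in those 3 libraries and lay between -0.427 and 0.407 in the others. The main counts and medians over the 39 genes are also given without those 3 libraries. The keratinocyte genes Krt5 and Krt14 and the fibroblast gene Col1a1 were each at 4529 CPM or more in every library. By the labels each library came from its own mouse, so p-values measure the spread between these 12 mice.

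Promoters of the 2 classes are read by different factors. As background, E2F factors bind sites in many S-phase promoters, while the DREAM complex and B-Myb with FoxM1 act at the cell cycle homology region (CHR) of many mitotic promoters, often beside CCAAT boxes bound by NF-Y. These 6 promoters are shown so that the motifs can be seen in place, and they were picked after the motif counts and the test results were known, so they do not stand for their class. Some windows with bases inside the annotated gene were passed over in that choice, Ccnb1 and Cdc6 among them, while that of Cdc20 was kept and trimmed. Capitals mark a CCAAT box (CCAAT), a CHR (TTTGAA or TTTAAA) or an E2F site (TTTCCCGC, TTTCGCGC, TTTGCCGC or TTTGGCGC), each searched on both strands. Sequences are RefSeq, build GRCm38.p6, 5′ to 3′ in the direction of the gene, and each is the 250 bases before the RefSeq start, less any base within the GENCODE gene, which leaves 241 for Cdc20. The Cdc20 window held 2 CCAAT boxes before this trimming and 1 after it. The mitotic promoters are those of Cdc20 (chr4:118437353-118437593, minus strand), Plk1 (chr7:122159185-122159434, plus strand, overlapping an exon of the annotated gene Gm15489) and Top2a (chr11:99024190-99024439, minus strand). The S-phase promoters are those of Mcm5 (chr8:75109259-75109508, plus strand), Mcm6 (chr1:128359706-128359955, minus strand) and Rrm1 (chr7:102441445-102441694, plus strand).
Cdc20: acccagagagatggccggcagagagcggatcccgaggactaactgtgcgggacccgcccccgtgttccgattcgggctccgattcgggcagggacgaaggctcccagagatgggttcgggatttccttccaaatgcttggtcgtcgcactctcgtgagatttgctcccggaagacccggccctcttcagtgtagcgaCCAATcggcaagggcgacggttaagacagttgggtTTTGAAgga
Plk1: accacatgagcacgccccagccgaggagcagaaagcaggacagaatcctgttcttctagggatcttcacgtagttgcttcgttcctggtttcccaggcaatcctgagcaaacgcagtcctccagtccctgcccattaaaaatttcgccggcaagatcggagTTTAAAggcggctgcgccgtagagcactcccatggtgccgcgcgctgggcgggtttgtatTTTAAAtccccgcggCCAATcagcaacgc
Top2a: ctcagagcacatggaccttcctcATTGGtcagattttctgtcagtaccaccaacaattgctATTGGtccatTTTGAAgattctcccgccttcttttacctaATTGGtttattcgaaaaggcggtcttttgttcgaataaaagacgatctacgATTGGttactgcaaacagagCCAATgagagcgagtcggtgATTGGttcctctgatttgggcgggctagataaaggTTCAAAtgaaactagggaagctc
Mcm5: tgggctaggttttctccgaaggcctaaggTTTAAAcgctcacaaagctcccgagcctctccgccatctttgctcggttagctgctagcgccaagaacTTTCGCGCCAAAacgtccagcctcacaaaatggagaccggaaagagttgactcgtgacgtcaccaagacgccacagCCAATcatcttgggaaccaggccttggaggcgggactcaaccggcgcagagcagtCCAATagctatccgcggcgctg
Mcm6: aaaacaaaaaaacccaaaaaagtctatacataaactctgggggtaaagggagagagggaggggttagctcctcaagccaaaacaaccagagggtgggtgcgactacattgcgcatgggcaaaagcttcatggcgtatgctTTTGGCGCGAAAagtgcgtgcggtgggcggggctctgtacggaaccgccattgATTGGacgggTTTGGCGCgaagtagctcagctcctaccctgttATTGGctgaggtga
Rrm1: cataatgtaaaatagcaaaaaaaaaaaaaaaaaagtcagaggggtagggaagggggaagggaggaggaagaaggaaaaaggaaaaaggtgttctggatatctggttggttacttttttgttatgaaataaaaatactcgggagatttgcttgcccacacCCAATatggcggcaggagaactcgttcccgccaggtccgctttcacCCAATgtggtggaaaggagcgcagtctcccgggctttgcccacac

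A promoter window was on hand for 32 of the 39 members, 13 S-phase and 19 mitotic. No window was matched for Ccna2, Tpx2, Foxm1, Mcm4, Aurkb, Ccne2 and Kif20a. In the 250 bases upstream, a CCAAT box was found in 17 of 19 mitotic and 9 of 13 S-phase members, against 37.5% of the 27025 genes with a window. A CHR was found in 13 of 19 mitotic and 4 of 13 S-phase members, against 28.1%. Both motifs were found together in 12 of 19 mitotic and 3 of 13 S-phase members, against 10.1%. An E2F site was found in 4 of 13 S-phase members and 1 of 19 mitotic members, against 2.16%. In the whole window of 300 bases, which was counted first and reaches past the start, the CHR count was 17 of 19 mitotic and 5 of 13 S-phase members, against 30.6%. There the E2F count was 5 of 13 and 1 of 19, against 2.61%. A gene with more than 1 window, as for 2 members, counts where any window holds the motif. No CCAAT box, CHR or E2F match overlapped a match of another of these motifs in the members. In the Mcm5 promoter the 2 E2F matches, and in the Mcm6 promoter 2 of the 3, overlap each other and stand as 1 longer run of capitals. A match is a run of letters and was not tested as a binding site.

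Per kilobase of exon, mean levels over the 12 libraries ran from 0.578 CPM per kb for Ccne2, a second cyclin E, to 41.5 for Pcna, the sliding clamp of DNA polymerase. Cdc20 followed at 32.7 CPM per kb. The median was 7.74 CPM per kb over the S-phase genes and 5.78 over the mitotic genes. The fold between the highest and the lowest library was 1.82 to 2.76 for S-phase genes (median 2.17) and 1.96 to 4.33 for mitotic genes (median 2.91). Over all genes with no zero the median was 2.55. The widest range was that of Birc5, survivin of the chromosomal passenger complex, and the narrowest that of Cdc6, which loads the helicase.

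**Figure D1:**
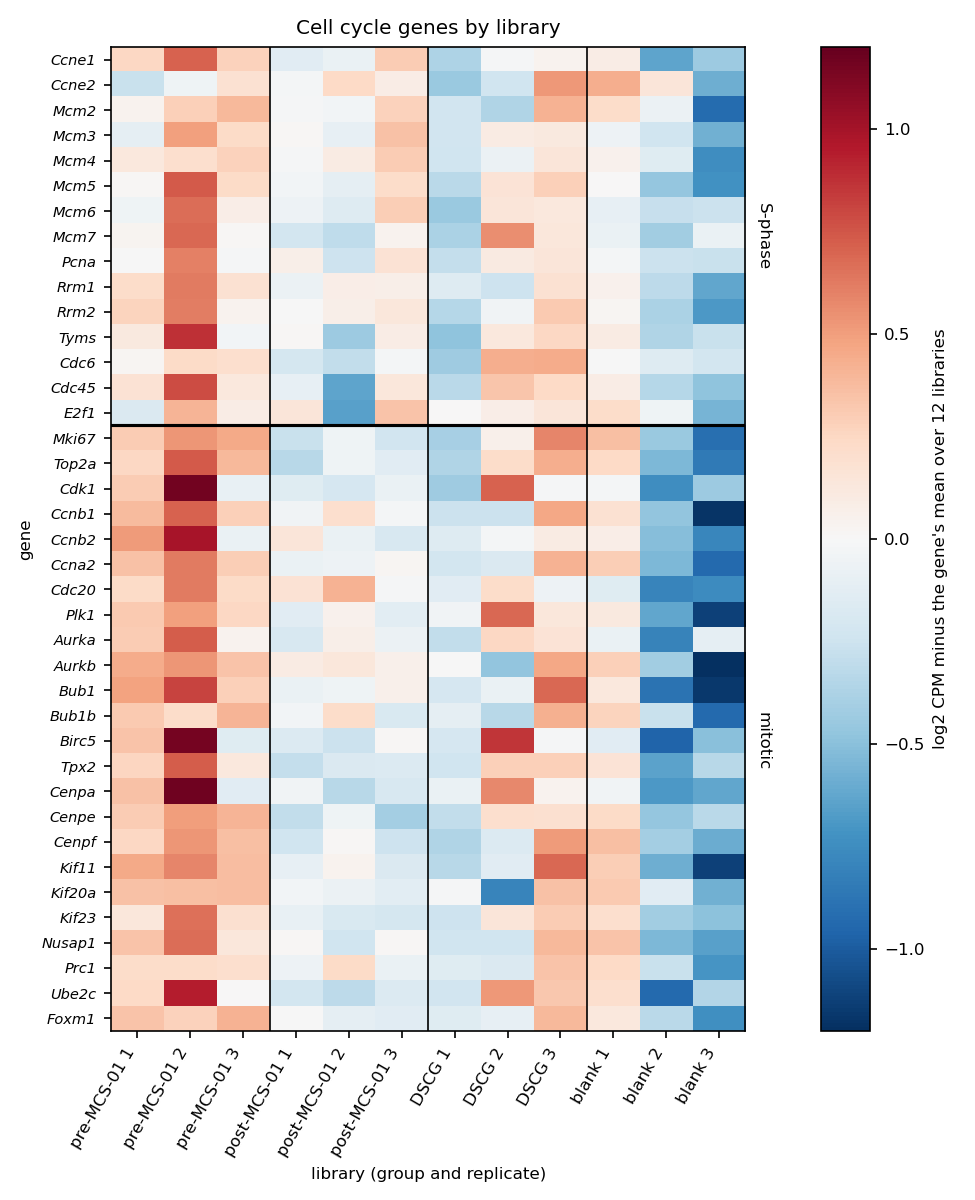
Each row is 1 of the 39 genes and each column 1 library; colour gives log2 CPM minus the mean of that gene over the 12 libraries, S-phase genes above the line and mitotic genes below. The library pre-MCS-01 2 is the highest for 28 of the 39 genes and blank 3 the lowest for 22.

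Levels differed between libraries of the same group as well as between groups, as the colour map of the members shows. In the 3 pre-MCS-01 libraries, 36, 38 and 33 of the 39 genes lay above their own median over the 12 libraries. The counts were 7, 12 and 19 in post-MCS-01, 1, 21 and 38 in DSCG, and 28, 1 and 0 in blank. So pre-MCS-01 was high in all 3 mice, and DSCG and blank each held libraries at both ends. In post-MCS-01 3 the classes parted, with 14 of 15 S-phase genes but 5 of 24 mitotic genes above their median, while post-MCS-01 1 and 2 were low in both (3 and 4 S-phase genes, 4 and 8 mitotic genes). In blank 1 it was the reverse, with 6 of 15 S-phase and 22 of 24 mitotic genes above. The library pre-MCS-01 2 was the highest for 28 genes, DSCG 3 for 7, and the lowest was blank 3 for 22 genes and blank 2 for 10. Members took up 0.0796% (blank 3) to 0.171% (pre-MCS-01 2) of all gene counts.

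Against blank, cell cycle transcripts in pre-MCS-01 wounds had higher means for 38 of 39 genes, but no gene passed the test. The exception was Ccne2. The median log2 fold change was 0.72 (1.65-fold) over the mitotic genes and 0.47 (1.39-fold) over the S-phase genes, against 0.04 over all 16267 genes, of which 54.1% had a log2 fold change above 0. By edgeR's quasi-likelihood test with adjustment over all genes, 0 of 39 members passed, and 0% of all genes did. DESeq2, with 0.418% of all genes called, and limma-voom, with 0%, also called 0 members, and limma-voom with library quality weights called 6, Aurka, Birc5, Bub1, Ccnb2, Cdc20 and Cenpa, where it called 15.3% of all genes. At an unadjusted p under 0.05, 23 members were higher, 18 mitotic and 5 S-phase, and 0 were lower, against 3.31% of all genes higher and 3.93% lower. The count was 1 (Cdc20), against 1.92% of all genes, without pre-MCS-01 2, DSCG 2 and blank 3 together. It was 2, against 1.89%, without pre-MCS-01 2, 3, against 0.808%, without blank 2, and 7, against 3.35%, without blank 3. It was 14, against 2.08%, with total-count scaling and 14, against 3.16%, in a fit of only the 2 groups. With groups that did not overlap, 21 members were higher, 10 S-phase and 11 mitotic, against 8.41% of all genes, and 0 were lower, against 5.96%. The count higher was 12, against 5.27%, under total-count scaling and 37, against 13.7%, without blank 1. It was 22, against 25.3%, without the 3 libraries. Without the 3 libraries, which leaves 2 a group here, 13 of 15 S-phase and 24 of 24 mitotic fold changes were positive, and the medians were 0.20 and 0.41. E2f1 then had a negative value.

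**Figure D2:**
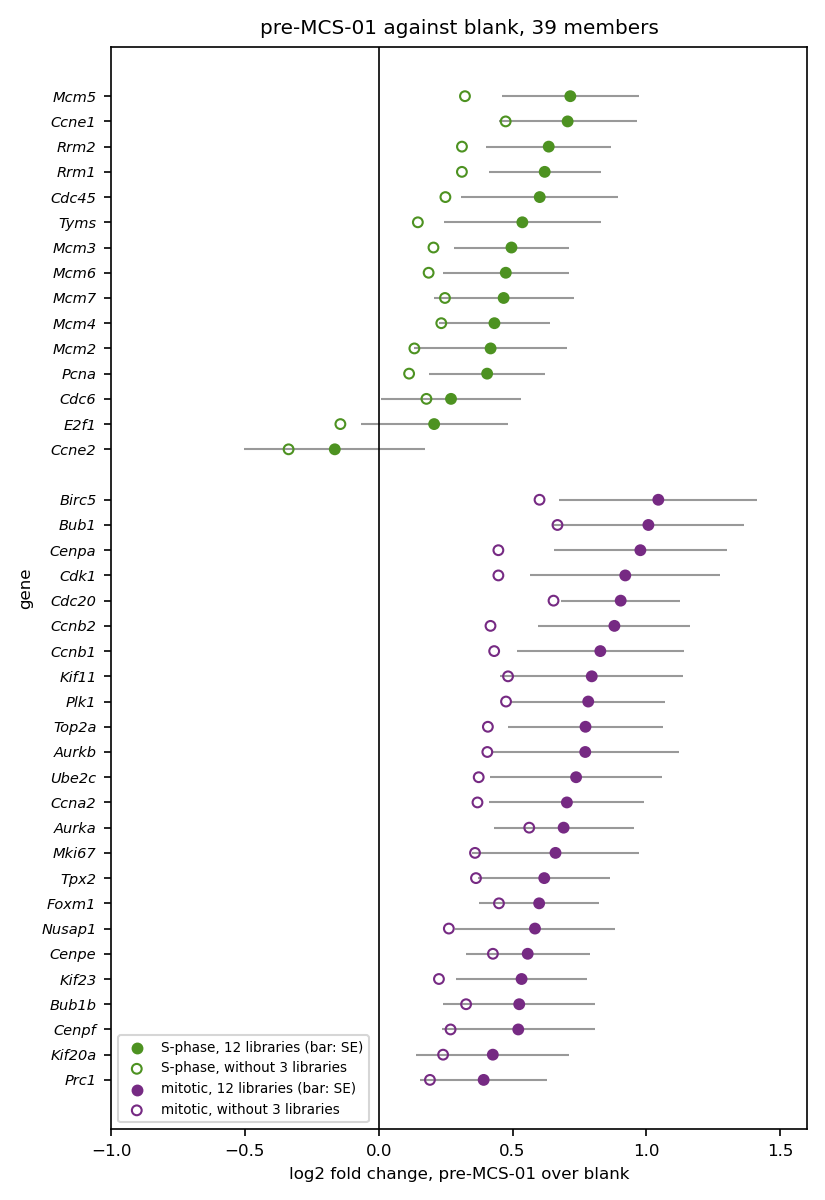
Each row is 1 gene; filled points give the log2 fold change of pre-MCS-01 over blank with its standard error in the fit of 12 libraries, and open points the value without pre-MCS-01 2, DSCG 2 and blank 3. All 24 mitotic genes lie right of 0 in both fits, and the open points lie nearer 0 for 38 of the 39 genes.

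Among the starters of S phase, Ccne1, which activates Cdk2, was at 10.9, 15 and 11.1 CPM in pre-MCS-01, against 9.80, 5.93 and 6.81 CPM in blank. The groups did not overlap. The means were 12.3 ± 2.31 and 7.51 ± 2.03 CPM (SD, n = 3), a log2 fold change of 0.71 ± 0.26 (SE, edgeR adjusted p = 0.669). E2f1, the transcription factor that opens S phase, was at 21.1, 31.8 and 25.4 CPM in pre-MCS-01 against 27.8, 23.1 and 16.2 CPM in blank. These overlapped, with a log2 fold change of 0.21 ± 0.27 (edgeR adjusted p = 0.855) that turned to -0.14 without the 3 libraries and to -0.18 in limma-voom with library quality weights. Ccne2 was low throughout, at 1.31 to 2.82 CPM over the 12 libraries, with a log2 fold change of -0.16 ± 0.34. Of its exon bases 17.4% lie opposite an exon of Ints8, so reads of the 2 genes may mix, since no strand setting is stated.

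The loaders and subunits of the replicative helicase had log2 fold changes between 0.27 and 0.72. Mcm2 was at 49.7, 58.8 and 63.3 CPM in pre-MCS-01, against 56.1, 46.1 and 25.4 CPM in blank, where blank 1 lay within the pre-MCS-01 range. Its log2 fold change was 0.42 ± 0.29 (edgeR adjusted p = 0.738). Mcm5 was at 61.9, 103 and 72.2 CPM against 61.7, 44.7 and 37.2 CPM, so that the nearest libraries of the 2 groups differed by less than 1 CPM. Its log2 fold change, 0.72 ± 0.26, was the highest of the S-phase genes (edgeR adjusted p = 0.661). Mcm3, Mcm4, Mcm6 and Mcm7 had values of 0.50, 0.43, 0.47 and 0.47, and 12.6% of the exon bases of Mcm7 are shared with other counted genes. Cdc45, which activates the helicase, had 0.60 ± 0.29, and Cdc6 had 0.27 ± 0.26.

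Genes that supply nucleotides included the S-phase gene with the smallest p. Rrm1, the large subunit of ribonucleotide reductase (chr7:102441695-102469771), was at 70.2, 93.0 and 68.5 CPM in pre-MCS-01, against 62.4, 48.5 and 39.3 CPM in blank. No blank library reached the lowest pre-MCS-01 library. The means were 77.2 ± 13.6 and 50.1 ± 11.6 CPM (SD, n = 3), a log2 fold change of 0.62 ± 0.21 (edgeR adjusted p = 0.646), and the value was 0.31 ± 0.17 without the 3 libraries. Rrm2, the small subunit whose level follows S phase, was at 42.3, 53.6 and 36.1 CPM against 35.6, 27.0 and 21.7 CPM. Here the lowest pre-MCS-01 library lay just above the highest blank library, and the log2 fold change was 0.64 ± 0.23 (edgeR adjusted p = 0.669). Pcna was at 97.9, 150 and 97.2 CPM against 96.7, 82.0 and 81.5 CPM, so that only pre-MCS-01 2 stood well above blank 1, with a log2 fold change of 0.41 ± 0.22 (edgeR adjusted p = 0.717). Tyms, thymidylate synthase, had 0.54 ± 0.29 with groups that overlapped.

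The mitotic gene with the smallest p was Cdc20, the activator that lets APC/C destroy cyclin B and securin (chr4:118432901-118437352). In blank it was at 53.3, 33.9 and 34.8 CPM, in DSCG at 53.5, 68.5 and 56.6 CPM, in post-MCS-01 at 66.3, 78.8 and 58.3 CPM, and in pre-MCS-01 at 69.1, 90.9 and 69.1 CPM. All 9 treated libraries lay above all 3 blank libraries, by less than 1 CPM at the closest. Cdc20 was the single member with that order, which 0.467% of all genes had. Against blank, at 40.7 ± 10.9 CPM (SD, n = 3), the log2 fold change was 0.90 ± 0.22 in pre-MCS-01 (edgeR adjusted p = 0.610). It was 0.73 ± 0.22 in post-MCS-01 (edgeR adjusted p = 0.268) and 0.55 ± 0.22 in DSCG (edgeR adjusted p = 0.999). These 3 comparisons share the blank libraries. Without pre-MCS-01 2, DSCG 2 and blank 3 the values were 0.65, 0.64 and 0.35. Of its exon bases 2.84% lie opposite an exon of Elovl1.

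**Figure D3:**
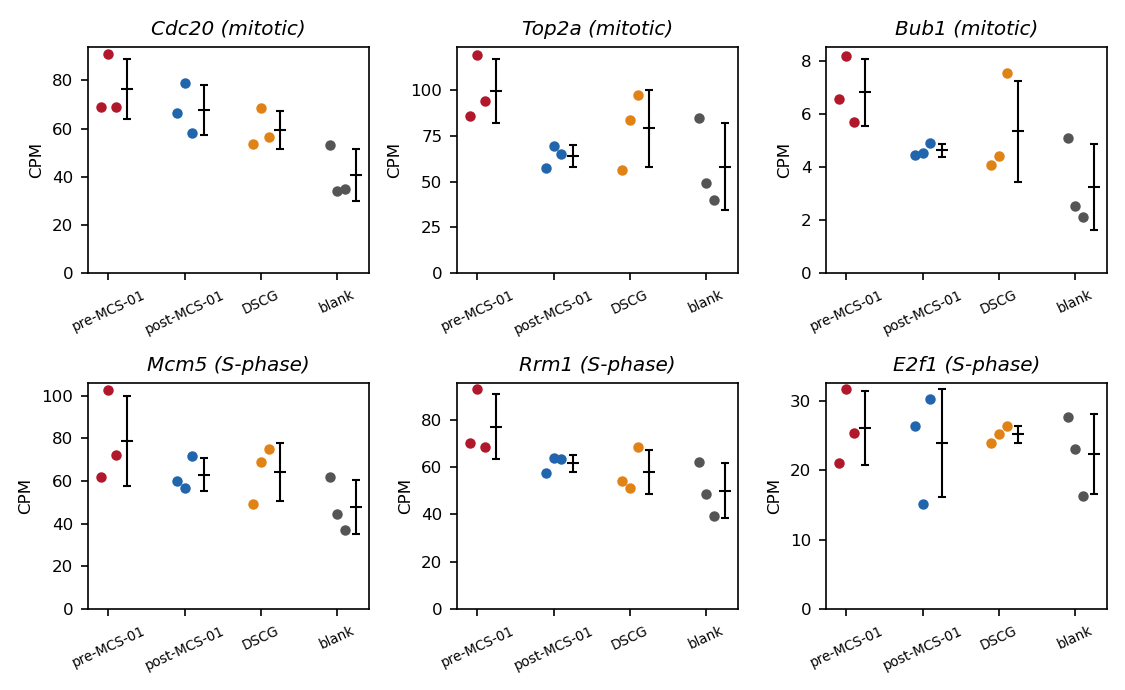
Points give CPM in each library for 3 mitotic and 3 S-phase genes, and the bar beside each group gives its mean with the SD over 3 libraries; all axes start at 0. For Cdc20 all 3 blank points lie below the other 9, while blank 1 lies within the range of the treated groups for Top2a, Bub1, Mcm5, Rrm1 and E2f1. Bub1 was added to the plot after its values were seen.

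The kinases and cyclins of mitotic entry had higher means in pre-MCS-01 with large spreads. Cdk1, the mitotic kinase, was at 29.8, 53.8 and 22.7 CPM in pre-MCS-01, against 23.8, 14.4 and 17.8 CPM in blank, which overlapped (log2 fold change 0.92 ± 0.36, edgeR adjusted p = 0.669). Ccnb1, cyclin B1, was at 30.7, 38.6 and 28.9 CPM against 26.9, 17.0 and 10.5 CPM, with no overlap (0.83 ± 0.31, edgeR adjusted p = 0.669). Plk1, the Polo kinase, was at 31.1, 35.2 and 29.8 CPM against 27.2, 16.3 and 11.5 CPM, again with no overlap (0.78 ± 0.29, edgeR adjusted p = 0.669). In all 3 genes blank 1 was the highest blank library. Foxm1, the transcription factor of the mitotic programme, was at 29.9, 28.6 and 31.3 CPM against 25.6, 18.8 and 14.1 CPM, with pre-MCS-01 libraries close to each other (0.60 ± 0.22, edgeR adjusted p = 0.669). Ccnb2, cyclin B2, had 0.88 ± 0.28, Ccna2, cyclin A2, had 0.70, and the Aurora kinases Aurka and Aurkb had 0.69 and 0.77.

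The structural genes of dividing chromosomes also had higher means in pre-MCS-01. Mki67, the proliferation marker that coats mitotic chromosomes, was at 112, 131 and 125 CPM in pre-MCS-01, against 117, 66.6 and 48.7 CPM in blank. Blank 1 lay inside the pre-MCS-01 range, and the log2 fold change was 0.66 ± 0.31 (edgeR adjusted p = 0.691). Top2a, the topoisomerase that untangles sister DNA, was at 85.7, 119 and 94.1 CPM against 85.0, 49.5 and 39.8 CPM, with blank 1 less than 1 CPM below the lowest pre-MCS-01 library (0.77 ± 0.29, edgeR adjusted p = 0.669). Of the centromere and checkpoint genes, Cenpa, the centromeric histone, had 0.98, Cenpe 0.56, Cenpf 0.52, Bub1 1.01 and Bub1b 0.52. Members given by fold change alone are there to account for all 39, whatever their p. Birc5 had the highest value of the set, 1.04 ± 0.37, with groups that overlapped. The spindle genes Kif11, Tpx2, Nusap1, Kif23, Prc1 and Kif20a had 0.80, 0.62, 0.58, 0.53, 0.39 and 0.43, and the APC/C enzyme Ube2c had 0.74. Exon bases lie opposite another gene's exon for 29.3% of Kif20a and 22.8% of Ube2c, and for 12.5% of Ccna2, 11.1% of Prc1 and 4.24% of Nusap1.

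Compared as classes, the mitotic genes differed more between pre-MCS-01 and blank than the S-phase genes did, in group means of 4.89 and 4.12 against 4.91 and 4.44 log2 CPM. The mean log2 CPM of the mitotic genes was 4.66, 3.93 and 3.76 in blank, 4.28, 4.57 and 4.81 in DSCG, 4.39, 4.45 and 4.38 in the post-MCS-01 wounds, and 4.81, 5.15 and 4.70 in the pre-MCS-01 wounds. For the S-phase genes it was, in that order of groups, 4.74, 4.41 and 4.18, then 4.36, 4.74 and 4.90, then 4.63, 4.50 and 4.86, then 4.72, 5.20 and 4.82. So blank 1 lay within the range of the treated libraries in both classes, and the 3 post-MCS-01 libraries stood close together in mitotic genes (SD 0.04). In S-phase genes their SD was 0.18, against 0.25 in pre-MCS-01 and 0.28 in both DSCG and blank, so post-MCS-01 had the smallest SD in both classes. The S-phase mean minus the mitotic mean, in log2 units, was -0.10, 0.04 and 0.12 in pre-MCS-01, 0.24, 0.05 and 0.48 in post-MCS-01, 0.08, 0.18 and 0.10 in DSCG, and 0.08, 0.48 and 0.42 in blank. The group means were 0.02 ± 0.11, 0.26 ± 0.22, 0.12 ± 0.05 and 0.33 ± 0.21 (SD, n = 3). Every pair of groups overlapped in this gap. Its size depends on the lengths and levels of the genes in each list, so only its differences between libraries can be read. Between pre-MCS-01 and blank the gap differed by -0.30 with means over the genes and by -0.11 with medians, so its size rests on which summary is used. The gap describes chosen lists and was given no test.

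**Figure D4:**
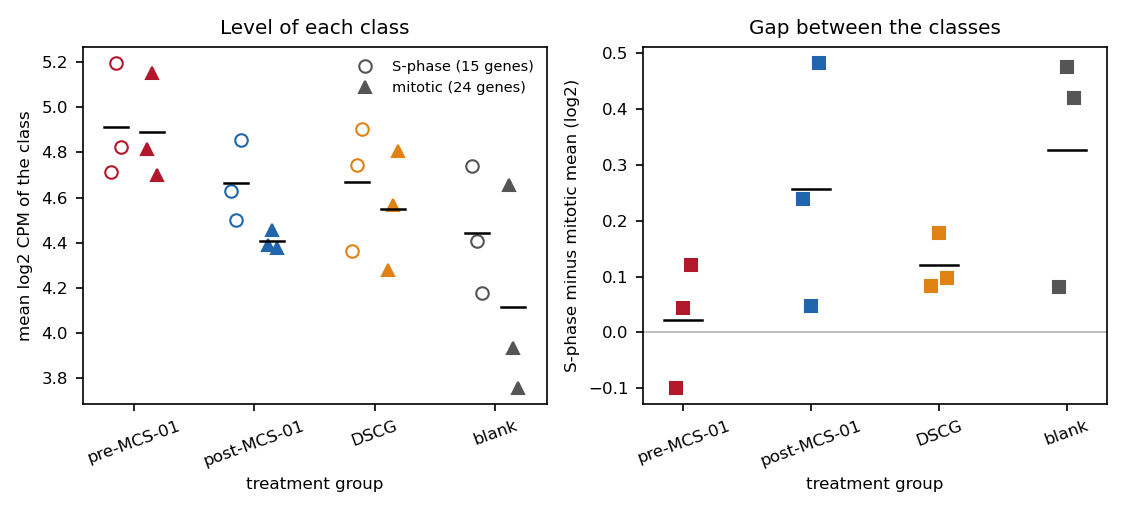
Left, the mean log2 CPM of the 15 S-phase genes (open circles) and the 24 mitotic genes (triangles) in each library by treatment group; right, the difference of these means; short lines are group means. The mitotic genes span 3.76 to 5.15 and the S-phase genes 4.18 to 5.20, and the gap reaches above 0.4 in post-MCS-01 3, blank 2 and blank 3.

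Against blank, post-MCS-01 wounds had higher means for 34 of 39 genes, 13 of 15 S-phase and 21 of 24 mitotic, against 49.2% of all genes. The median log2 fold changes were 0.24 and 0.23, with -0.01 over all genes. By edgeR's quasi-likelihood test 0 members passed, as 0% of all genes, and DESeq2, limma-voom and limma-voom with library quality weights called 0 members, where they called 406, 0 and 827 genes, the last 5.08% of all genes. At an unadjusted p under 0.05, 1 member was higher, Cdc20, against 3.91% of all genes, and 0 were lower, against 5.44%. The count was 11, against 3.26%, without blank 1 and 1, against 4.17%, without pre-MCS-01 2, DSCG 2 and blank 3 together. Cdc20 was also the 1 member higher with no overlap, against 8.92%, and 0 were lower, against 9.45%. The S-phase gene with the smallest p was Mcm4, at 34.7, 37.6 and 43.2 CPM in post-MCS-01 and 36.2, 31.8 and 21.0 CPM in blank, with overlap (0.36 ± 0.21, edgeR adjusted p = 0.655). The mitotic median was 0.02 without blank 3, 0.12 without blank 2 and 0.51 without blank 1, and it was 0.03 without pre-MCS-01 2, DSCG 2 and blank 3. The S-phase median was 0.09 without post-MCS-01 3, 0.14 without blank 3 and 0.15 without the 3 libraries. The sign was the same in all 22 fits for 20 of the 39 genes.

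Against blank, DSCG wounds had higher means for 37 of 39 genes, 14 of 15 S-phase and 23 of 24 mitotic, against 49.8% of all genes. The median log2 fold changes were 0.18 over the S-phase and 0.36 over the mitotic genes, and close to 0 over all genes. By edgeR's quasi-likelihood test 0 members passed, as 0% of all genes, and the 3 other tools called 0 members and 0% of all genes. At an unadjusted p under 0.05, 2 members were higher, Plk1 and Cdc20, against 0.535% of all genes, and 0 were lower, against 0.492%. The count was 15, against 1.07%, without blank 1. It was 4 without DSCG 1, pre-MCS-01 2 or pre-MCS-01 3, against 2.90%, 0.660% and 0.570%. It was 0 without DSCG 2, blank 2 or blank 3, against 0.159%, 0.128% and 0.884%, and 0 without the 3 libraries, against 0.277%. The mitotic median was 0.74 without blank 1, 0.15 without DSCG 3, 0.16 without blank 3 and 0.22 without the 3 libraries. The S-phase median was 0.37 without blank 1, 0.34 without DSCG 1, 0.10 without DSCG 3 and 0.09 without the 3 libraries. Plk1 was at 24.3, 40.5 and 27.6 CPM in DSCG, with DSCG 2 above all other libraries and DSCG 1 below blank 1 (0.73 ± 0.29, edgeR adjusted p = 0.999). Cdc20 was the 1 member higher with no overlap, against 1.91%, and 0 were lower, against 1.77%. Mcm5, at 49.0, 69.0 and 74.8 CPM in DSCG, had the smallest p of the S-phase genes (0.42, edgeR adjusted p = 0.999).

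Between the 2 MCS-01 labels, the mitotic genes stood further apart than the S-phase genes. All 24 mitotic and 14 of 15 S-phase genes had higher means in pre-MCS-01, against 52.5% of all genes, with medians of 0.52 and 0.25 and 0.03 over all genes. By edgeR's quasi-likelihood test 0 of 39 passed, where 0.824% of all genes did. DESeq2, with 2.63% of all genes called, and limma-voom, with 1 gene, called 0 members, and limma-voom with library quality weights called 5, Cenpe, Foxm1, Mki67, Top2a and Tpx2, where it called 23.5% of all genes. At an unadjusted p under 0.05, 4 members were higher, Cenpe, Tpx2, Cenpa and Top2a, against 6.02% of all genes, and 0 were lower, against 4.20%. The count was 7, against 7.18%, without pre-MCS-01 3 and 2, against 5.31%, without DSCG 3. It was 1 without pre-MCS-01 2, post-MCS-01 1 or post-MCS-01 2, against 3.25%, 4.38% and 4.31%, and 0, against 3.84%, without post-MCS-01 3. It was 13, against 6.38%, in a fit of only the 2 groups and 19, against 19.6%, in limma-voom with library quality weights. It was 1, against 4.31%, with total-count scaling and 1, against 3.74%, without the 3 libraries. With no overlap, 18 members were higher, 16 mitotic and 2 S-phase, Rrm1 and Cdc6, against 10.7% of all genes, and 0 were lower, against 7.01%. The count higher was 19, against 13.2%, without pre-MCS-01 2, DSCG 2 and blank 3, where the medians were 0.33 for the mitotic and 0.07 for the S-phase genes. Without pre-MCS-01 2 alone the medians were 0.35 and 0.09.

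Cenpe, the kinesin that aligns chromosomes, had the smallest p of this comparison. It was at 17.5, 20 and 18.8 CPM in pre-MCS-01, against 11.5, 13.6 and 10.7 CPM in post-MCS-01. The groups did not overlap, with SDs of 1.25 and 1.51 CPM (n = 3) and a log2 fold change of 0.65 ± 0.23 (edgeR adjusted p = 0.339). Top2a was at 57.2, 69.2 and 65.3 CPM in post-MCS-01, below all pre-MCS-01 libraries, with 0.64 ± 0.29 (edgeR adjusted p = 0.486). Mki67 was at 75.4, 87.8 and 77.8 CPM, also below all pre-MCS-01 libraries, with 0.61 ± 0.31 (edgeR adjusted p = 0.535). Foxm1, at 23.5, 21.8 and 21.4 CPM, did not overlap either, with 0.43 ± 0.22 (edgeR adjusted p = 0.548). Cdk1 was at 21.9, 21.0 and 22.9 CPM, of which post-MCS-01 3 lay above the lowest pre-MCS-01 library, and Cdc20 overlapped too, with values of 0.69 ± 0.35 and 0.17 ± 0.22. Among S-phase genes, Cdc45 had the smallest p (9.57, 6.62 and 11.3 CPM in post-MCS-01, 0.56 ± 0.29, edgeR adjusted p = 0.549), and Mcm4 had 0.07 ± 0.21. Ccnb1 was at 23.0, 27.2 and 23.3 CPM and Plk1 at 22.8, 26.0 and 23.0 CPM, all below the pre-MCS-01 libraries.

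In pre-MCS-01 against DSCG, all 24 mitotic and 13 of 15 S-phase genes were on the higher side, against 54.6% of all genes, with medians of 0.34 and 0.26. Without the 3 libraries the medians were 0.16 and 0.10, the mitotic median was 0.18 without DSCG 1, and the S-phase median was 0.05 without pre-MCS-01 2 and 0.13 without DSCG 1. By edgeR's quasi-likelihood test 0 members passed, as 0% of all genes, the 3 other tools called 0 members, where DESeq2 called 0.105% of all genes, and 0 had an unadjusted p under 0.05, against 0.959% of all genes higher and 1.40% lower. The count higher was 3, against 1.31%, without DSCG 3 and 1, against 1.06%, without pre-MCS-01 3. With no overlap 4 were higher, Ccne1, Rrm1, Cdc20 and Cenpe, against 2.53%, and 0 were lower, against 2.59%. Ccne1 had the smallest p (7.09, 9.10 and 9.49 CPM in DSCG, 0.53 ± 0.25), and of the mitotic genes Ccnb2, at 31.5, 44.0 and 20.9 CPM against 19.9, 21.8 and 23.6 CPM, which overlapped (0.56 ± 0.28). The edgeR adjusted p was 0.9998 for every member.

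In post-MCS-01 against DSCG, 9 of 15 S-phase genes had a positive and 19 of 24 mitotic genes a negative log2 fold change, against 49.4% positive over all genes. The medians were 0.07 and -0.20, and 0.01 and -0.18 without the 3 libraries. The sign was the same in all 22 fits for 15 of the 39 genes. By edgeR's quasi-likelihood test 0 members passed, where 1.06% of all genes did, the 3 other tools called 0 members, where DESeq2 called 3.81% of all genes, and 0 members had an unadjusted p under 0.05, against 4.63% higher and 6.72% lower. With no overlap 0 were higher, against 7.14%, and 0 lower, against 8.28%. Ube2c, at 26.5, 24.7 and 27.5 CPM against 26.2, 44.3 and 38.4 CPM, overlapped through DSCG 1 (-0.47 ± 0.32, edgeR adjusted p = 0.621), as did Cdc6, at 4.51, 4.25 and 5.12 CPM against 3.88, 7.03 and 7.07 CPM (-0.37 ± 0.26, edgeR adjusted p = 0.627). The mitotic median was 0.048 without DSCG 3 and -0.37 without DSCG 1. The S-phase median was 0.17 without DSCG 3, -0.10 without DSCG 1 and -0.07 without post-MCS-01 3. The joint edgeR test of the 4 groups called 0 members, as 0% of all genes, DESeq2, with 3.48% of all genes called, and limma-voom called 0, and limma-voom with library quality weights called 1, Cdc20, where it called 20.1% of all genes. At an unadjusted p under 0.05 the joint edgeR test gave 3 members, Cdc20, Cenpa and Ccnb2, against 8.42% of all genes, and 21 without blank 1, 6 without DSCG 1, 5 without pre-MCS-01 3 and 0 without blank 2 or without the 3 libraries. It was 1 without pre-MCS-01 1, pre-MCS-01 2, DSCG 3, blank 3 or any 1 of the post-MCS-01 libraries. For the joint test, shares over all genes at an unadjusted p were not computed with libraries left out.

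Other genes of the cycle, in lists separate from the 39, were read the same way, and edgeR called 0 of these 134 genes in any of the 6 comparisons. Over all genes it called 0.824% between the MCS-01 labels, 1.06% in post-MCS-01 against DSCG and 0% in every other comparison. In pre-MCS-01 against blank, where 54.1% of all genes were positive and 3.31% were higher at an unadjusted p under 0.05, 42 of 42 other replication genes had positive values, with a median of 0.55, and 16 had an unadjusted p under 0.05. That count was 2 without the 3 libraries, where the median was 0.27, and 3 without pre-MCS-01 2. It was 4 without blank 2, 8 without blank 3 and 9 in a fit of only the 2 groups. Over all genes the shares in these settings were 1.92%, 1.89%, 0.808%, 3.35% and 3.16%. Of the replication genes Cdt1, the licensing factor, was at 32.2 ± 4.26 against 19.9 ± 4.16 CPM (SD, n = 3; 0.68 ± 0.19, edgeR adjusted p = 0.610). All 50 other mitosis genes were positive, with a median of 0.62 and 25 at an unadjusted p under 0.05, and Psrc1, a spindle protein, was at 27.6 ± 3.49 against 17.1 ± 1.29 CPM (edgeR adjusted p = 0.610). The count was 3 without the 3 libraries, where the median was 0.33, 6 without pre-MCS-01 2 and 6 without blank 2. It was 11 without blank 3 and 10 in a fit of only the 2 groups, with the shares over all genes given above. It was 15, against 2.08% of all genes, with total-count scaling. All 10 genes of G1 entry were positive, with a median of 0.38, and 3 had an unadjusted p under 0.05. With total-count scaling 7 of the 10 were positive, and without the 3 libraries 8 were, with a median of 0.11 and 1 at an unadjusted p under 0.05. That count was also 1 without pre-MCS-01 2, blank 2 or blank 3, and 2, against 3.87% of all genes, without pre-MCS-01 3. Among them Myc, a transcription factor of growth, was at 80.9 ± 5.88 CPM in pre-MCS-01, 78.6 ± 6.20 in post-MCS-01, 52.9 ± 6.93 in DSCG and 56.7 ± 5.39 in blank (edgeR adjusted p = 0.617 for pre-MCS-01 and 0.332 for post-MCS-01 against blank). Cell cycle brakes such as Cdk inhibitors had 11 of 18 positive values, a median of 0.07 that was -0.02 with total-count scaling, and 0 at an unadjusted p under 0.05, with Cdkn1a, the inhibitor p21, at 383 ± 59.8 against 310 ± 44.0 CPM. Fzr1, the APC/C activator of G1, had the smallest p of the brakes, with 0.34 ± 0.16 (edgeR adjusted p = 0.70). Of 14 transcription factors of the cycle 11 were positive, with a median of 0.30, and E2f8 was at 21.1 ± 5.63 against 12.7 ± 2.76 CPM (edgeR adjusted p = 0.658). In this comparison limma-voom with library quality weights called 6 of the replication, 10 of the mitosis and 2 of the G1 genes, 1 brake and 1 transcription factor, where it called 15.3% of all genes.

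In post-MCS-01 and in DSCG against blank, the lists had smaller medians. For the other replication genes they were 0.23 and 0.25, with 39 of 42 positive in each, and for the other mitosis genes 0.17 and 0.28, with 43 of 50 positive in each, against 49.2% of all genes positive in post-MCS-01 and 49.8% in DSCG. Incenp, of the chromosomal passenger complex, had the smallest p of the mitosis list in post-MCS-01 (0.46 ± 0.21, edgeR adjusted p = 0.538). In DSCG, Dbf4, which activates the S-phase kinase Cdc7, and Troap, a spindle protein, had the smallest (0.53 ± 0.24 and 0.72 ± 0.32, edgeR adjusted p = 0.999 for both). Cks1b, a Cdk partner, had 0.67 ± 0.33 in DSCG, and Cdkn2b, the inhibitor p15, had -0.58 ± 0.29 in post-MCS-01 (edgeR adjusted p = 0.571).

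Marker lists of other cells stood apart between groups. Hair matrix cells divide fast, and the 6 hair matrix markers summed to 417 to 804 CPM in pre-MCS-01, 55.4 to 102 in post-MCS-01, 126 to 847 in DSCG and 209 to 502 in blank, with 0 of the 6 at 0 in any whole group. The 6 hair shaft and inner root sheath markers summed to 11008 to 25089, 27.6 to 71.4, 1671 to 34788 and 5834 to 17020 CPM. Between the MCS-01 labels, edgeR called 6 of the 6 hair shaft markers and 1 of the 6 hair matrix markers, all higher in pre-MCS-01, where it called 0.824% of all genes. Both counts were 0 without pre-MCS-01 2, any 1 post-MCS-01 library or blank 3, and without the 3 libraries. In those fits 0% of all genes were called. The median log2 fold change there was 8.03 to 9.48 for the hair shaft markers and 3.00 to 3.54 for the hair matrix markers. The hair shaft count was 1 without DSCG 3, where 0.0243% of all genes were called. The hair matrix count was 0 also without pre-MCS-01 3, DSCG 2, DSCG 3 or blank 2, against 0.291%, 0.244%, 0.0243% and 0.164%. It was 5, against 1.54%, without DSCG 1. Neither marker sum overlapped between the MCS-01 labels, and both were higher in pre-MCS-01, as were the mitotic means. Library by library, the hair matrix sum and the mitotic mean were 419 CPM and 4.81, 804 and 5.15, and 417 and 4.70 in pre-MCS-01. They were 126 and 4.28, 803 and 4.57, and 847 and 4.81 in DSCG, and 502 and 4.66, 209 and 3.93, and 250 and 3.76 in blank. The post-MCS-01 libraries, with the lowest sums of all (59.0, 102 and 55.4 CPM), had means of 4.39, 4.45 and 4.38, above blank 2 and blank 3 and below blank 1. Within each of the 4 groups the library with the highest hair matrix sum also had the highest mitotic mean. For the S-phase mean this held in pre-MCS-01, DSCG and blank but not in post-MCS-01. There post-MCS-01 2, with the highest hair matrix sum, had the lowest S-phase mean, 4.50 against 4.63 and 4.86. With the hair shaft sum, the match to the mitotic mean also failed in post-MCS-01. There post-MCS-01 2 had the lowest hair shaft sum, 27.6 CPM, and the highest mitotic mean. With the summed wound keratinocyte keratins, given below, the match held in pre-MCS-01 and post-MCS-01 but not in DSCG or blank. The part of hair follicle content in these results was not tested.

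**Figure D5:**
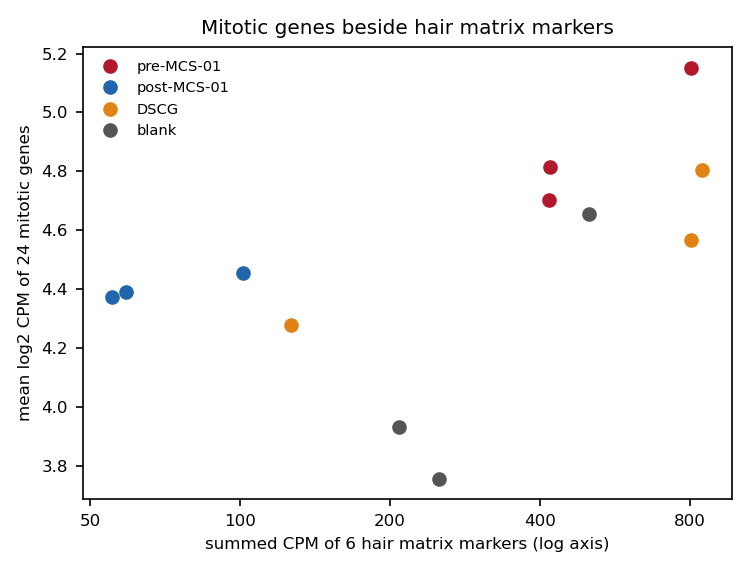
Each point is 1 library, with the summed CPM of 6 hair matrix markers on a log axis and the mean log2 CPM of the 24 mitotic genes. The 3 post-MCS-01 libraries have the lowest marker sums and lie at 4.38 to 4.45, while blank 2 and blank 3 have higher sums and lie at 3.93 and 3.76 and blank 1, with 502 CPM, lies at 4.66. In each of the 4 groups the library with the highest sum has the highest mitotic mean. That match fails in post-MCS-01 for the S-phase mean and for the hair shaft marker sum.

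Other marker lists were also at different levels in pre-MCS-01 and blank, with 0 genes of them called by edgeR, as 0% of all genes were. The 4 wound keratinocyte keratins summed to 15159 to 18509 CPM in pre-MCS-01 and 9773 to 14144 in blank, the 5 neutrophil markers to 3965 to 6392 and 482 to 876, and the 5 macrophage markers to 417 to 634 and 791 to 884, none of which overlapped. In post-MCS-01 these lists summed to 15131 to 26100, 4426 to 9973 and 664 to 1214 CPM, and in DSCG to 6465 to 20423, 27.8 to 3647 and 519 to 987 CPM. Basal keratinocyte and fibroblast markers overlapped between pre-MCS-01 and blank, at 15909 to 24787 against 14349 to 20683 CPM and 11651 to 65046 against 16691 to 67956 CPM. All 6 fibroblast markers had lower means in pre-MCS-01 than in blank (median log2 fold change -0.50), and so did all 5 endothelial markers (median -0.63), which summed to 50.1 to 220.5 CPM in pre-MCS-01, 150.1 to 254 in post-MCS-01, 132 to 275 in DSCG and 110.3 to 277 in blank. None of these passed edgeR's test, as 0% of all genes did. At an unadjusted edgeR p under 0.05, 1 of the 5 endothelial markers was lower, against 3.93% of all genes. No gene of these lists was at 0 in all 3 libraries of a group. Mast cell markers, 5 genes, summed to 141 to 185 CPM in pre-MCS-01, 99.3 to 253 in post-MCS-01, 134 to 249 in DSCG and 169 to 212 in blank, all overlapping. The part of these cells in the cell cycle values was not tested.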

How the data were processed

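RNA came from skin wounds by way of a miRNeasy kit, and libraries were of the TruSeq type, per the labels' protocols. The deposited values are raw read counts per gene symbol, made by the authors. Tools named, with mouse build mm10, are TopHat2 and Bowtie2 (aligners), HTSeq (counting), FastQC and limma, per the submitters' processing notes; versions, the annotation and the strand setting are not given in the sources used here. The 5 summary lines of the counter, 22.9% to 29.3% of all lines' counts, were left out. Counts were analysed in R 4.3.3 with edgeR 4.0.16: filterByExpr kept 16267 genes, TMM factors were 0.905 to 1.07, and 1 quasi-likelihood model (glmQLFit, glmQLFTest, two-sided) of 12 libraries with a mean per group gave the 6 comparisons and a joint test. Benjamini-Hochberg adjustment ran over all genes, with a threshold of 0.05. An adjusted p in the text is from this edgeR model. The biological coefficient of variation was 0.347. With 3 against 3, the smallest exact permutation p of a single value is 0.1. CPM are scaled by TMM; class means use log2 CPM with a prior count of 2. Exon lengths and gene positions are those of GENCODE M21 on GRCm38, matched by symbol for 94.5% of genes and for all 39 members. The model was run on simulated data in which each planted log2 fold change was larger than that of any member. Changes of the size reported here were not tried.

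The members and lists were chosen with earlier results of these data known. Members named with their values were 12 with set roles and the member of each class with the smallest p in each comparison; from other lists, the gene with the smallest p in each comparison against blank was named with a mean or a fold change. Other settings were RLE and total-count scaling, no filter, DESeq2 1.42.0, limma-voom (limma 3.58.1) with and without library quality weights, a fit of 2 groups, other gap definitions, an exon-length covariate, and leaving out libraries. Class medians, counts at unadjusted p and counts without overlap, and all settings for the other lists, were added after the data were seen. No 2 libraries held identical counts.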

Additional observations from a re-analysis of the deposited data

How the results depend on the processing

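In each of the 7 tests, 0 cell cycle genes passed under every setting and with any library left out, with 1 exception: limma-voom with library quality weights called 6 in pre-MCS-01 against blank, 5 in pre-MCS-01 against post-MCS-01 and 1 in the joint test. The cause was not tested. In pre-MCS-01 against blank, 23 members and 3.31% of all genes were higher at an unadjusted p under 0.05. The 23 became 14 (2.08% of all genes) with total-count scaling and 14 (3.16%) with only the 2 groups. They became 1 (1.92%) with pre-MCS-01 2, DSCG 2 and blank 3 all left out, a fit with fewer samples. With 1 library left out they became 2 (1.89%) to 30 (2.83%). The 21 higher with no overlap, against 8.41% of all genes, became 12 (5.27%) with total-count scaling. With 1 library left out they became 21 to 37, but the share over all genes was then 10.1% to 17.7%. With the 3 libraries left out they became 22, against 25.3%. Without the 3 libraries the median for S-phase genes was 0.20 in pre-MCS-01 against blank, and for mitotic genes 0.33 in pre-MCS-01 against post-MCS-01, where it was 0.35 to 0.57 with 1 library left out. For mitotic genes in post-MCS-01 against DSCG, leaving out 1 library gave -0.37 to 0.048. With a median in place of the mean over members, the S-phase minus mitotic gap was -0.11 in place of -0.30 for pre-MCS-01 against blank and 0.044 in place of -0.098 for pre-MCS-01 against DSCG. E2f1 in pre-MCS-01 against blank turned to -0.18 with quality weights and -0.14 without the 3 libraries. The sign was the same in all 22 fits for 37 of 39 genes in pre-MCS-01 against blank, 20 in post-MCS-01 and 32 in DSCG against blank, 33 in pre-MCS-01 against post-MCS-01, and 29 in pre-MCS-01 and 15 in post-MCS-01 against DSCG. No paired analysis was possible because the labels give every mouse its own number and no link between groups. Depth limits blank 3 most, where the lowest member rests on 5 counts.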
